A study of Mus musculus with 2 samples.

Results

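The genes described here are 9 that mark gamma delta T cells of the interleukin 17 producing kind, often called gamma delta T17 cells, in mouse uterus: Tcrg-C1, Trdc, Trdv4, Il17a, Il23r, Cd163l1, Pdcd1, Cxcr6 and Acpp. They were taken by symbol from the 32285 gene rows of the deposited tables, and all 9 were found. They were chosen by their UMI counts in these same libraries, so their levels are given as a description without a test. Uteri were digested whole and profiled by droplet single-cell RNA sequencing, in a study built around Prickle1, a planar cell polarity gene. There were 2 libraries of female C57BL/6J mice aged 6 months, 1 titled Prickle1 f/f (control) and 1 titled Prickle1 f/f MiC (cKO), and each pooled 3 mice before capture. Both therefore carry the floxed Prickle1 allele; what MiC means, and in which cells it acts, is not given in the labels, whose genotype field has wild-type in either case. Digestion in collagenase at 1.5 mg/ml lasted 5 h.

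Gamma delta T cells carry a T cell receptor built from a gamma and a delta chain in place of the alpha and beta chains of most T cells. A subset leaves the thymus already able to make interleukin 17A, settles in barrier and reproductive tissues, and in the uterus is mostly of the type whose receptor pairs the variable segments Vgamma6 and Vdelta1. Interleukin 23 and interleukin 1 drive these cells, and the interleukin 17A they release acts on epithelium, fibroblasts and other cells through a receptor of the subunits Il17ra and Il17rc.

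UMIs, unique molecular identifiers, count captured RNA molecules. The library labelled control held 45035801 UMIs and 3490 cells with a median of 4953 UMIs, and the library labelled cKO held 34261441 UMIs and 3586 cells with a median of 4903; 6 cell barcodes occurred in both. With 1 library per group there is no replicate error and no test; all intervals are 95%, unadjusted, and cover counting error only. Prickle1 was higher, not lower, in the library labelled cKO. It was counted 96 times over all cells of the library labelled control and 265 times in that labelled cKO (2.56 and 9.03 CPM, UMIs scaled to a class total of 1e6). Those totals also depend on the mix of cell classes. Whether such counts report the state of the floxed allele was not tested, so the libraries are named by their labels throughout. In smooth muscle-like cells Prickle1 stood at 14.8 and 24.3 CPM, from 14 and 51 UMIs, a ratio of 1.64 with an interval of 0.893 to 3.20 that includes 1. Fibroblast-like cells held 26 and 119 UMIs, a ratio of 2.40 (1.56 to 3.82), and epithelium-like cells 17 and 5, a ratio of 4.13 (1.19 to 11.7). Lymphatic endothelium-like cells lay below 1, at 0.664 (0.268 to 1.79). Epithelium-like cells were 37.6% of the cells in the library labelled control and 3.04% in that labelled cKO. Cell classes are called "X-like" from marker genes, and doublets were not removed.

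The name of the gene set was checked first against cells defined without it. Cells were clustered with the 9 genes kept out of the variable genes, and the T or NK cell-like clusters were clustered again; the gamma delta T cell-like class took its name from 4 other genes that passed the naming rule, Blk, Cd3g, Il7r and Ccr2. It held 79 cells in the library labelled control and 277 in that labelled cKO, which is 2.26% (1.80 to 2.81) and 7.72% (6.87 to 8.65) of all cells. Within the 346 and 749 T or NK cell-like cells its share was 22.8% (18.5 to 27.6) and 37.0% (33.5 to 40.6). The syndecan gene Sdc1, on the plasma cell marker list, led this class at 472 and 489 CPM beside Cd163l1, Aqp3, Trdc and Blk. The T cell genes Cd3e and Cd3g stood at 559 and 448 CPM in its control cells and at 684 and 654 CPM in its cKO cells. Trac, the alpha chain constant gene, was counted 24 and 51 times, in 19.0% and 11.2% of its cells. The beta chain constant genes were frequent there, Trbc1 in 49.4% and 55.2% of its cells and Trbc2 in 68.4% and 63.9%.

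Every one of the 9 genes had its highest level in the gamma delta T cell-like class, in both libraries, when classes were ordered by CPM. The order took the classes of T or NK cell-like cells and all other classes with at least 20 cells in a library. These were 15 in the library labelled control, where 5 granulocyte-like cells were left out, and 16 in that labelled cKO. For Il17a the interval of the top class overlapped that of the next class in both libraries, and for the other 8 genes it did not. Because clusters are built from the expression of the same cells, this order is a description and no test. The remaining T or NK cell-like cells were NK cell-like (114 and 296 cells), alpha beta T cell-like (68 and 108), ILC2-like, that is type 2 innate lymphoid (21 and 25), or unnamed (64 and 43). Unnamed cells were 18.5% and 5.74% of the T or NK cell-like cells. Of them, 41 control cells and 1 cKO cell formed a sub-cluster led by interferon response genes such as Ifit3 and Cxcl10; 20 of its 41 control cells had a Trdc UMI. The rule that kept it unnamed was set after the data were seen.

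**Figure D1:**
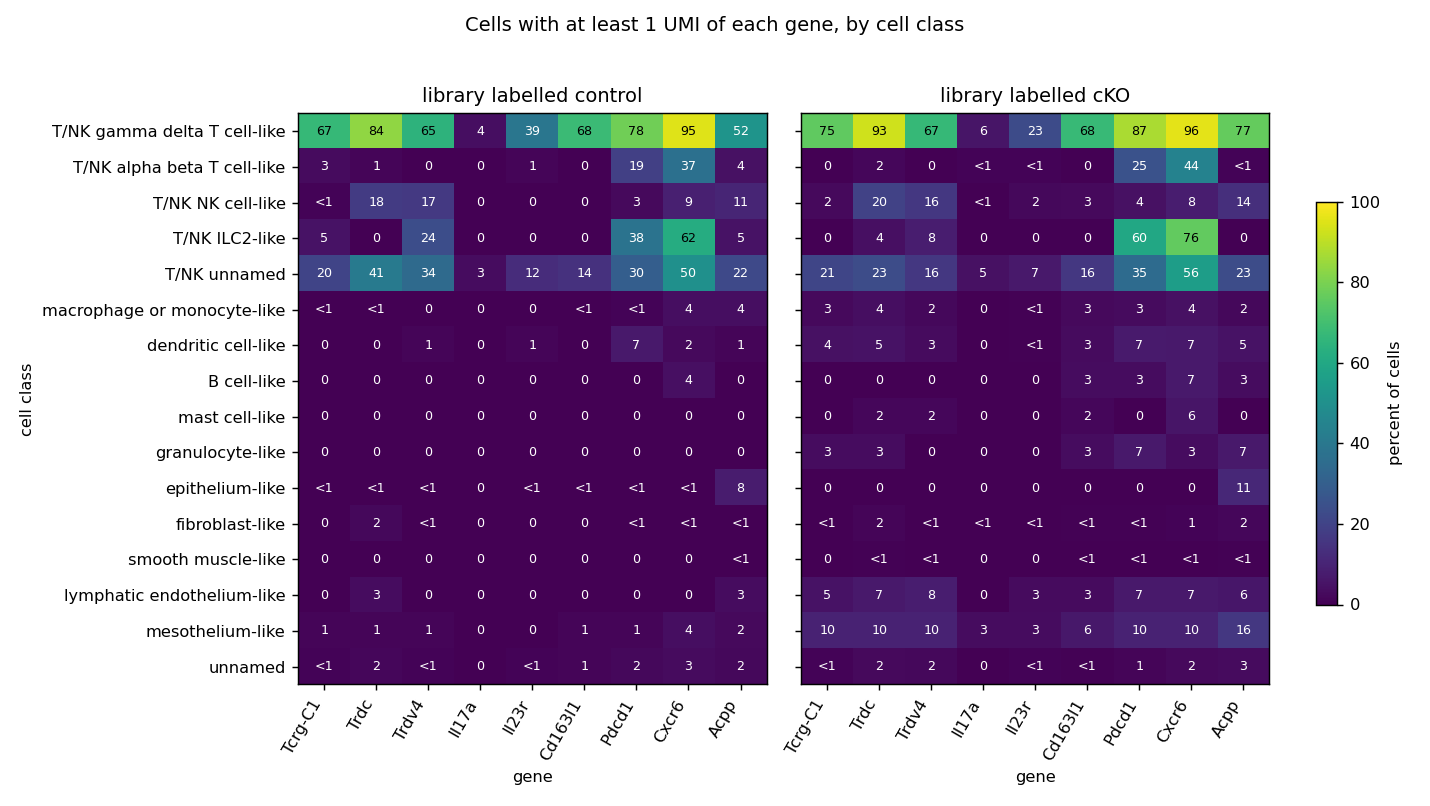
Percent of cells with at least 1 UMI of each of the 9 genes (columns) in each cell class (rows), for the library labelled control (left) and that labelled cKO (right); T/NK marks classes of T or NK cell-like cells. The top row, gamma delta T cell-like cells, is bright for every gene but Il23r and Il17a. Il23r was found in a minority of those cells in both libraries, and Il17a in 3.80% and 5.78% of them. Pdcd1 and Cxcr6 were also seen in ILC2-like and alpha beta T cell-like cells and Acpp in epithelium-like cells.

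The receptor genes came first. Tcrg-C1 (ENSMUSG00000076749, chr13:19214103-19217024, plus strand, GRCm38 with GENCODE vM21) is the constant gene of the gamma chain. In gamma delta T cell-like cells it was counted 163 times (487 CPM, interval 415 to 568) in the library labelled control, against 626 times (597 CPM, interval 552 to 646) in that labelled cKO, a ratio of 1.23 (1.03 to 1.47). On the log2 scale after adding 5 CPM that is 0.29, and in T or NK cell-like cells with a Cd3 and a Trdc UMI it was 0.022. In alpha beta T cell-like cells the counts were 2 and 0. Across all T or NK cell-like cells they were 214 and 676, at 117 and 208 CPM, a ratio of 1.78 (1.52 to 2.08). Part of its sequence is not unique. Of its 875 windows of 50 bases, 17.9% also occur in Tcrg-C2 and 17.6% in Tcrg-C3. How far this affects its count was not tested. Tcrg-C3 had no UMI in these cells, which does not show how many reads were shared.

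Trdc (ENSMUSG00000104876, chr14:54142851-54148868, plus strand), the constant gene of the delta chain, was found in 83.5% of the gamma delta T cell-like cells in the library labelled control, and in 92.8% of them in that labelled cKO. Its counts there were 498 (1488 CPM, interval 1360 to 1625) and 1851 (1767 CPM, interval 1687 to 1849), a ratio of 1.19. Its direction depended on the cells taken. Finer sub-clustering was an alternative added after seeing the data. The log2 ratio of 0.25 after adding 5 CPM became -0.26 in the finer sub-cluster that kept the gamma delta name (26 and 118 cells). In another finer sub-cluster with Trdc among its leading genes, which stayed unnamed (56 and 145 cells), the counts were 260 and 901. The ratio there was 1.57 (1.36 to 1.81). The ratio over all T or NK cell-like cells was 1.72, from 671 and 2054 UMIs. NK cell-like cells also held Trdc UMIs, in 17.5% and 19.6% of cells, and in 6.14% and 5.74% once each cell had been thinned to 1000 UMIs. Alpha beta T cell-like cells were nearly free of it, with 1 and 7 UMIs. Trdc overlaps Gm43434 and Trdv5 on the opposite strand, and whether counting used strand is not given in the sources used here.

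Among delta variable genes the reads fell on Trdv4 (ENSMUSG00000076867, chr14:54074905-54075515, plus strand), which encodes Vdelta1. It was counted 201 times (601 CPM, interval 520 to 690) and 515 times (492 CPM, interval 450 to 536) in gamma delta T cell-like cells, a ratio of 0.818 (0.694 to 0.968). After thinning to 1000 UMIs its log2 ratio was -0.024 in place of -0.29. Of 5 other delta variable genes, Trdv2-2 had 1 UMI in these cells, in the library labelled control, and Trdv1, Trdv2-1, Trdv3 and Trdv5 had none. In alpha beta T cell-like cells Trdv4 was at 0 in both libraries, which allows up to 11.4 and 7.98 CPM. NK cell-like cells held 29 and 78 Trdv4 UMIs. Trdv4 overlaps Gm30275 on the opposite strand.

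Gamma variable genes had few UMIs. Tcrg-V6, which encodes Vgamma6, had 6 and 29 UMIs in gamma delta T cell-like cells, Tcrg-V4 had 1 and 3, Tcrg-V5 had 6 and 3, and Trgv2 had 3 and 31. All 6 control cells and all 27 cKO cells with a Tcrg-V6 UMI also had a Trdv4 UMI; they were 11.8% and 14.5% of the Trdv4-positive cells, against 0 of the 28 and 91 Trdv4-negative cells. Of the other gamma constant genes, Tcrg-C2 had 10 and 46 UMIs, and Tcrg-C4 had 9 and 69, a ratio of 2.45 (1.22 to 5.58).

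**Figure D2:**
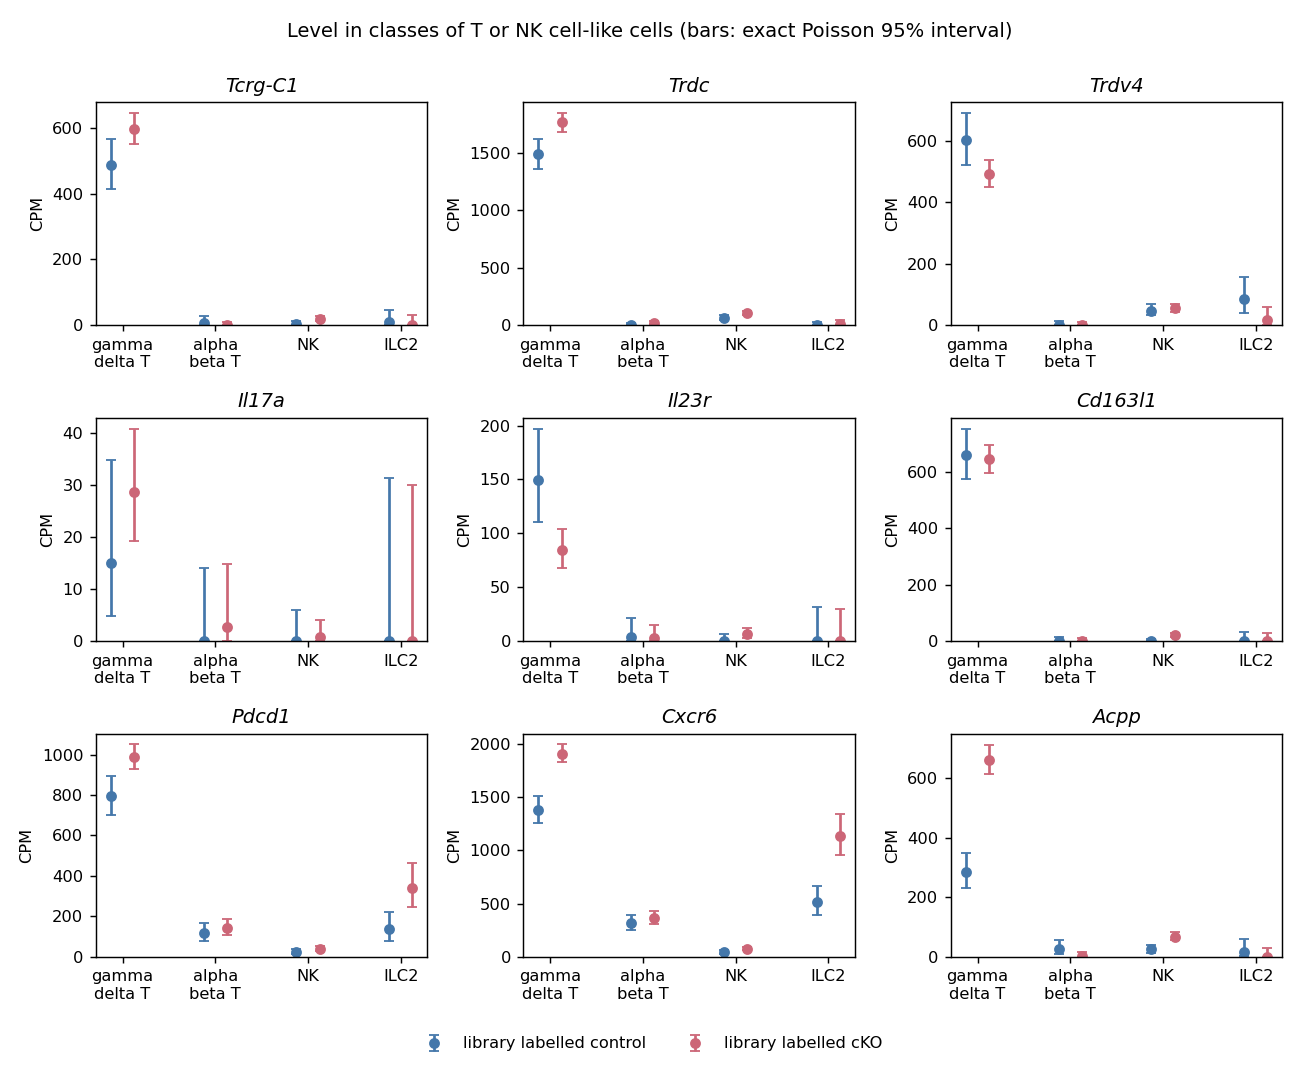
Level of each of the 9 genes in CPM (vertical axis, each panel with its own scale) in the classes of T or NK cell-like cells (horizontal axis) for the library labelled control (blue) and that labelled cKO (red); points are summed UMIs over the class total and bars are exact Poisson 95% intervals. The gamma delta T cell-like class stands above the others in every panel, with Acpp at 284 and 661 CPM and Il23r at 149 and 84.0 CPM in that class.

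The interleukin 17 axis was represented by a cytokine and a receptor. Il17a (ENSMUSG00000025929, chr1:20730905-20734496, plus strand) encodes interleukin 17A itself. It was rare: 5 UMIs in 3 of 79 gamma delta T cell-like cells of the library labelled control, and 30 UMIs in 16 of 277 cells of that labelled cKO. That is 14.9 CPM (4.85 to 34.9) and 28.6 CPM (19.3 to 40.9), and the ratio of 1.92 had an interval of 0.74 to 6.33, so a difference was not detectable at this depth. Over all T or NK cell-like cells it was counted 8 and 36 times, in 5 and 20 cells, a ratio of 2.53 (1.16 to 6.30); as several UMIs came from 1 cell, counting intervals are too narrow for it. Outside the T or NK cell-like cells it was counted 0 and 7 times. Il17f, the neighbouring cytokine gene, was counted 1 and 5 times in T or NK cell-like cells and in none of the gamma delta T cell-like cells.

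Il23r (ENSMUSG00000049093, chr6:67422932-67491855, minus strand) encodes the subunit by which the cells sense interleukin 23. It was the member furthest below equality in gamma delta T cell-like cells: 50 UMIs (149 CPM, interval 111 to 197) in the library labelled control and 88 UMIs (84.0 CPM, interval 67.4 to 103) in that labelled cKO, a ratio of 0.562 (0.393 to 0.812). The share of cells with a UMI was 39.2% (28.4 to 50.9) and 22.7% (17.9 to 28.1), at median depths of 4128 and 3550 UMIs, and 12.7% and 8.66% after thinning to 1000 UMIs. Over all T or NK cell-like cells, where the gamma delta share is larger in the library labelled cKO, it stood at 33.9 and 31.1 CPM and the ratio was 0.915 (0.661 to 1.28). Among cells with an Il17a UMI, 4 of 16 in the library labelled cKO and 0 of 3 in the library labelled control also had an Il23r UMI, against 22.6% and 40.8% of the cells without one.

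The bases before the starts of these 2 genes and of Pdcd1 are shown because AGGTCA, the half-site of the nuclear receptor family, lies in all of them. Windows of 250 bases ending at the base before the start were searched on both strands for AGGTCA and for TGANTCA, the AP-1 site, in the RefSeq promoter table of GRCm38.p6, which held 6 of the 9 genes and none of the receptor chains. Capitals mark the matches; TGACCT is AGGTCA read on the other strand. The Il17a window is chr1:20730655-20730904 on the plus strand, the Il23r window chr6:67491856-67492105 on the minus strand and the Pdcd1 window chr1:94052554-94052803 on the minus strand, each written 5′ to 3′ along its gene.
Il17a: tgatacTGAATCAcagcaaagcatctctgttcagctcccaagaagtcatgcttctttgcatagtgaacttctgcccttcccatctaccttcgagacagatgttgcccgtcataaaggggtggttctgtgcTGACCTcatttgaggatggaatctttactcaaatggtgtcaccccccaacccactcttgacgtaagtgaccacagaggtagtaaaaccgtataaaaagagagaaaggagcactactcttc
Il23r: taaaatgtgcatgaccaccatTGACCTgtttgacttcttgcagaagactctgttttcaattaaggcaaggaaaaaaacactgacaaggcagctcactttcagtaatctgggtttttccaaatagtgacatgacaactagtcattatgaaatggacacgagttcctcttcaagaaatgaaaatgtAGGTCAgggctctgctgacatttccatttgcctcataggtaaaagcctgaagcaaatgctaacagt
Pdcd1: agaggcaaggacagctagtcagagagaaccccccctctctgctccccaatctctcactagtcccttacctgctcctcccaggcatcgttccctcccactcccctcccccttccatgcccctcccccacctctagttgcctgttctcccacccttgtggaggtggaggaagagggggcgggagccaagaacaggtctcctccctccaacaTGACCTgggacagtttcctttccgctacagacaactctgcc
In Il17a the AP-1 match begins 244 bases before the start and the AGGTCA half-site 120 bases before it, in Il23r the half-sites begin 229 and 66 bases before it, and in Pdcd1 the single half-site begins 41 bases before it. No match overlapped another. The windows of Cd163l1, Cxcr6 and Acpp held neither motif. Of 32851 promoter windows in the table, 14.0% hold AGGTCA and 6.75% hold TGANTCA; a match is a description of letters and not a binding site.

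Cd163l1 (ENSMUSG00000025461, chr7:140218267-140231145, plus strand) encodes SCART1, a scavenger receptor family member of gamma delta T cells. Gamma delta T cell-like cells held 221 UMIs (660 CPM, interval 576 to 753) in the library labelled control and 676 UMIs (645 CPM, interval 597 to 696) in that labelled cKO, a ratio of 0.977. Other named classes of T or NK cell-like cells held almost none: it was at 0 UMIs in alpha beta T cell-like and ILC2-like cells of both libraries and in the 114 NK cell-like cells of the library labelled control. The 296 NK cell-like cells of the library labelled cKO held 28 UMIs, in 2.70% of cells. Its 263 and 729 UMIs over all T or NK cell-like cells gave a ratio of 1.56. Its relative 5830411N06Rik, which encodes SCART2, was counted 39 and 2 times in gamma delta T cell-like cells, in 7.59% and 0.722% of them, a log2 ratio of -4.14 that was the largest in size among the listed genes there.

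Pdcd1 (ENSMUSG00000026285, chr1:94038305-94052553, minus strand) encodes the checkpoint receptor PD-1. It was found in 78.5% of gamma delta T cell-like cells of the library labelled control and in 87.4% of those of that labelled cKO, with 266 UMIs (795 CPM, interval 702 to 896) and 1035 UMIs (988 CPM, interval 929 to 1050), a ratio of 1.24. ILC2-like cells held 16 and 42 UMIs (136 and 342 CPM) and alpha beta T cell-like cells 31 and 54 UMIs (118 and 144 CPM). NK cell-like cells were low, at 21.3 and 39.3 CPM. The ratio over all T or NK cell-like cells was 1.67, from 413 and 1231 UMIs.

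Cxcr6 (ENSMUSG00000048521, chr9:123806475-123811760, plus strand) encodes a chemokine receptor of tissue-resident lymphocytes. Nearly all gamma delta T cell-like cells carried it, 94.9% and 96.0%, with 462 UMIs (1381 CPM, interval 1258 to 1512) in the library labelled control and 2002 UMIs (1911 CPM, interval 1828 to 1996) in that labelled cKO, a ratio of 1.38. It was also frequent in other classes: ILC2-like cells held 61 and 140 UMIs (518 and 1139 CPM) and alpha beta T cell-like cells 83 and 136 UMIs (315 and 362 CPM). The order of the classes was the same in both libraries, gamma delta T, then ILC2, then alpha beta T, then NK cell-like at 44.2 and 73.7 CPM, with the unnamed cells between ILC2 and alpha beta T. The intervals of unnamed and alpha beta T cell-like cells overlapped in both libraries. Cxcr6 overlaps Fyco1 on the opposite strand.

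Acpp (ENSMUSG00000032561, chr9:104288251-104337748, minus strand) encodes prostatic acid phosphatase, an enzyme that also removes phosphate from extracellular AMP to give adenosine. Of the 9 genes it differed most between the libraries. Gamma delta T cell-like cells held 95 UMIs (284 CPM, interval 230 to 347) in the library labelled control and 693 UMIs (661 CPM, interval 613 to 713) in that labelled cKO, a ratio of 2.33 (1.88 to 2.92). The share of cells with a UMI was 51.9% (40.4 to 63.3) and 76.5% (71.1 to 81.4), and after thinning to 1000 UMIs 19.0% and 43.7%. At a finer resolution 2 sub-clusters had genes of this set among their 10 leading genes, 1 of which kept the gamma delta name and 1 of which stayed unnamed. The Acpp counts were 36 and 342 in the first, a ratio of 2.37 (1.68 to 3.44), and 62 and 340 in the other, a ratio of 2.48 (1.89 to 3.31).

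Elsewhere Acpp behaved less evenly. NK cell-like cells held 15 and 95 UMIs, a ratio of 2.77 (1.60 to 5.14); 10 of the 296 such cells of the library labelled cKO, and none of the 114 of the library labelled control, carried at least 5 of the 9 genes. In cells with no Cd3 UMI and with a UMI of Ncr1, Klrb1c or Klre1, NK cell genes, the counts were 20 and 32 and the ratio 1.17 (0.648 to 2.15), so no difference was detectable there. Alpha beta T cell-like cells held 7 and 1 UMIs. Epithelium-like cells held 150 of the 319 Acpp UMIs of the library labelled control (47.0%) but 15 of the 969 of that labelled cKO (1.55%); scaled to the class total the epithelium-like level was 7.94 and 11.1 CPM. The other 8 genes had between 83.7% and 100% of their UMIs in T or NK cell-like cells in each library.

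The genes were found together in the same cells. A gamma delta T cell-like cell carried a median of 6 of the 9 in both libraries, and 4 after thinning to 1000 UMIs, and 74.7% and 84.8% of these cells carried at least 5. The medians were 0.5 and 1 in alpha beta T cell-like cells, 0 and 0 in NK cell-like cells and 1 and 2 in ILC2-like cells. Counting cells by genes and not by clusters, in the library labelled control 73 of 346 T or NK cell-like cells (21.1%), and in that labelled cKO 252 of 749 (33.6%), carried at least 5 of the 9. Of the control cells so counted, 11 lay in the interferon-led sub-cluster.

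**Figure D3:**
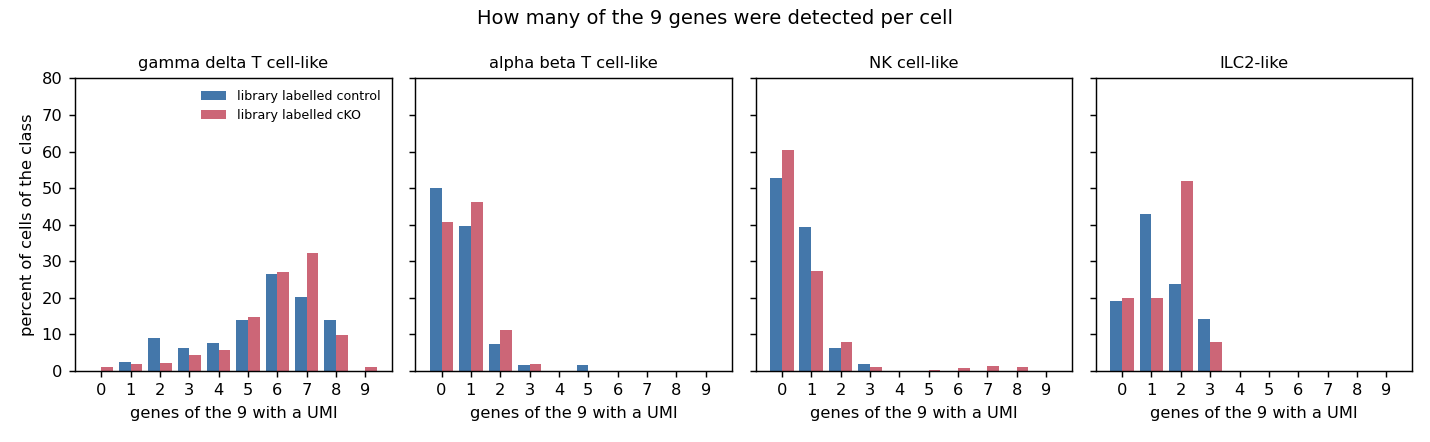
Number of the 9 genes with at least 1 UMI per cell (horizontal axis) against the percent of cells of the class (vertical axis) for 4 classes of T or NK cell-like cells, in the library labelled control (blue) and that labelled cKO (red). Gamma delta T cell-like cells peak at 6 to 7 genes, and the other classes at 0 to 2.

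Few cells outside the T or NK cell-like classes carried the genes. Cells there with at least 2 Trdc UMIs numbered 5 in the library labelled control and 38 in that labelled cKO, and they held 53.8% and 93.1% of the Trdc UMIs outside. Of them, 4 of 5 and 30 of 38 also had a Cd3d, Cd3e or Cd3g UMI, against 0.859% and 1.73% of all cells outside. In every class that held such cells their median depth was above that of the class: the 8 dendritic cell-like ones of the library labelled cKO had a median of 13062 UMIs against 8126 for that class. Macrophage or monocyte-like cells, taken as a class that should lack these genes, had a Trdc UMI in 0.323% and 3.52% of cells and a Cd163l1 UMI in 0.323% and 2.64%, at median depths of 7692 and 5802 UMIs. Free RNA in empty droplets was estimated at 4.06% and 5.50% of the UMIs of T or NK cell-like cells.

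Set side by side, 7 of the 9 ratios were closer to 1 within gamma delta T cell-like cells than over all T or NK cell-like cells; Trdv4 and Il23r were the exceptions. A log2 ratio of CPM after adding 5 CPM was used to count genes past 2-fold, which understates changes of low genes. Over all T or NK cell-like cells 1 of the 9 genes, Acpp at 1.68, was at least 2-fold higher in the library labelled cKO and none was 2-fold lower, where 1.02% of all 8708 genes of at least 10 CPM were that much higher and 2.35% that much lower, 89 and 205 genes, or 59 and 244 with median-of-ratios scaling. The members' median was 0.77 and that of all genes 0.13. Acpp ranked 21st from the top, Tcrg-C1 226th at 0.80 and Cxcr6 231st at 0.80, while Trdv4 at 0.19 and Il23r at -0.11 lay among the bulk of genes. In gamma delta T cell-like cells Acpp, at 1.21, was again the 1 member past 2-fold, with 6.61% of 8640 genes higher and 2.03% lower. There the members' median was 0.29 beside 0.12 for all genes, 6 members lay above 0 and 3 below, and Il23r at -0.80 lay at percentile 3.76 of the genes.

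**Figure D4:**
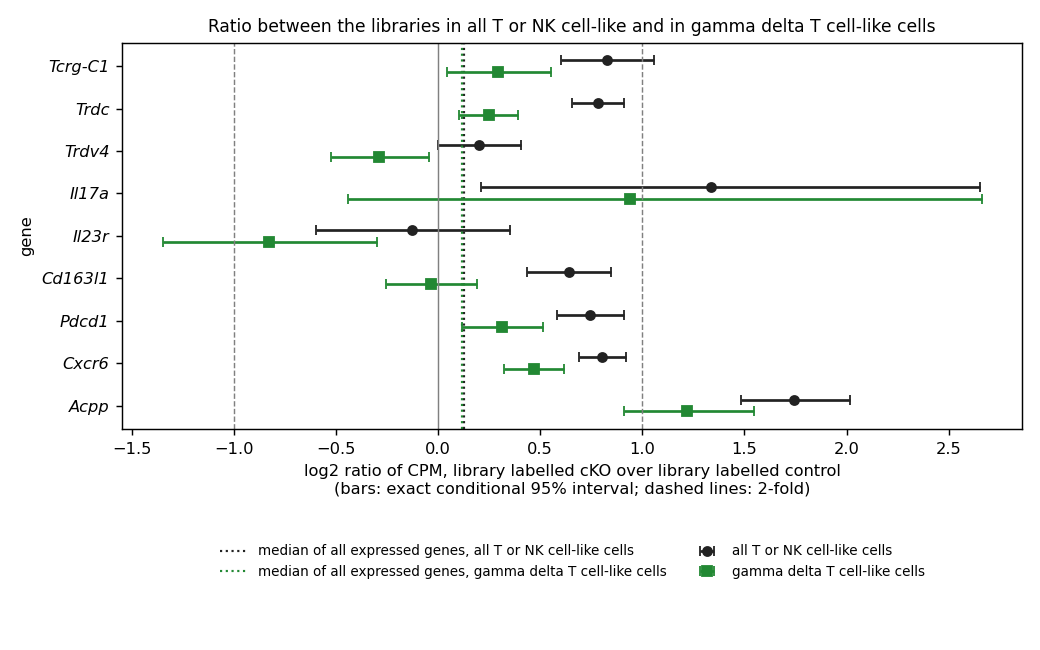
Log2 ratio of CPM without a pseudocount, library labelled cKO over library labelled control (horizontal axis), for each of the 9 genes. Black circles are all T or NK cell-like cells and green squares gamma delta T cell-like cells, with exact conditional 95% intervals. Dotted lines are the medians of all expressed genes, computed after adding 5 CPM and so on another scale than the points. Dashed lines mark 2-fold. Acpp lies past 2-fold in both, Il23r, Trdv4 and Cd163l1 lie below 0 within gamma delta T cell-like cells, and for each gene the green square lies left of the black circle.

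Other genes of the T17 programme were read from lists. Of 15 expressed regulators, 1 was at least 2-fold higher over T or NK cell-like cells and none lower, beside 1.02% and 2.35% of all genes. It was Blk, a Src family kinase, with 49 and 203 UMIs (26.8 and 62.4 CPM), a log2 ratio of 1.08. Ahr, a xenobiotic-sensing transcription factor, followed at 0.96, and the lowest were Batf at -0.41 and Tcf7 at -0.16. Sox13, a transcription factor of gamma delta T cells, was counted 7 and 37 times and Maf 485 and 1090 times (265 and 335 CPM). Within gamma delta T cell-like cells Blk stood at 137 and 177 CPM and Maf at 490 and 599 CPM. Sox13 there had 3 and 33 UMIs, a ratio of 3.51 (1.10 to 17.9). It was the 1 of 14 regulators past 2-fold, a share close to that of all genes there, 6.61% higher and 2.03% lower.

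Cytokine and receptor genes of the programme stayed within 2-fold over T or NK cell-like cells, 0 of 14 in either direction. Of all genes, 1.02% were that much higher and 2.35% that much lower. The highest were Tgfbr1 at 0.63 and Il17re, an interleukin 17 receptor family gene, at 0.53, and the lowest Areg at -0.86 and Il2ra at -0.63. Il1r1, the interleukin 1 receptor, was counted 67 and 177 times and stood at 140 and 135 CPM in gamma delta T cell-like cells. Il7r, the interleukin 7 receptor, was counted 337 and 860 times there, at 1007 and 821 CPM. Ccr6, a chemokine receptor of many T17 cells, had 1 and 4 UMIs over T or NK cell-like cells and none in gamma delta T cell-like cells.

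Of 16 expressed further surface and metabolic genes of such cells, 2 were at least 2-fold higher over T or NK cell-like cells and 1 lower. The shares of all genes were 1.02% higher and 2.35% lower. Aqp3, a water and glycerol channel, had 112 and 453 UMIs (log2 ratio 1.12) and Kcnk1, a potassium channel, had 24 and 104 (1.03), while 5830411N06Rik had 40 and 5 (-2.04) and Lgals3 was at -0.61. The list of type 1 genes, which mark NK cells and interferon gamma producers, had 0 of 15 higher and 2 lower, beside the same shares of all genes. With median-of-ratios scaling 4 were lower. Gzmb, a cytotoxic granule protease, had 667 and 465 UMIs (-1.32) and the chemokine Ccl5 had 1745 and 1234 (-1.32), while Il2rb at 0.37 and Cd27 at 0.33 were the highest. Cd27, which the T17 kind of gamma delta T cell is known to lack, was found in 5.06% and 2.89% of gamma delta T cell-like cells and in 43.0% and 48.0% of NK cell-like cells.

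Residence and checkpoint genes showed 0 of 12 past 2-fold over T or NK cell-like cells, with Nr4a1, an immediate early gene, at 0.90 and Adora2a, an adenosine receptor, at 0.61 the highest and Cd69 at -0.59 and Itga1 at -0.27 the lowest. In gamma delta T cell-like cells 3 of 10 were at least 2-fold higher and none lower, beside 6.61% and 2.03% of all genes there. Nr4a1 had 4 and 94 UMIs there (11.9 and 89.7 CPM), Ctla4 had 1 and 21 and Prdm1 had 5 and 39. Of the other gamma delta receptor genes, 0 of 3 passed 2-fold over T or NK cell-like cells, with Trgv2 at 0.67, Tcrg-C2 at 0.19 and Tcrg-C4 at 0.09. In gamma delta T cell-like cells 2 of 5 were higher, Trgv2 with 3 and 31 UMIs and Tcrg-C4 with 9 and 69, and 1 was lower, Tcrg-V5 with 6 and 3. Over all lists, 5 of 87 expressed genes were at least 2-fold higher and 5 lower over T or NK cell-like cells, beside 1.02% and 2.35% of all genes. In gamma delta T cell-like cells 9 of 71 were higher and 4 lower, beside 6.61% and 2.03%. Genes named for the counts in gamma delta T cell-like cells were chosen after their values were seen.

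The upstream ligand genes Cxcl16, Cd274, Il1b and Il23a were highest in other cells. Tgfb1 was not confined to other cells. It stood at 380 and 489 CPM in T or NK cell-like cells, 631 and 400 CPM in lymphatic endothelium-like cells and 283 and 350 CPM in macrophage or monocyte-like cells. Cxcl16, the ligand of Cxcr6, was highest in macrophage or monocyte-like cells (678 and 542 CPM) and dendritic cell-like cells (645 and 792 CPM), and in fibroblast-like cells (374 and 219 CPM) and epithelium-like cells (317 and 116 CPM) the library labelled cKO had the lower level. Cd274, which encodes the PD-1 ligand PD-L1, stood at 766 and 731 CPM in dendritic cell-like cells and at 470 and 293 CPM in macrophage or monocyte-like cells. Mast cell-like cells were about as high as dendritic cell-like cells, at 780 and 724 CPM from 56 and 90 UMIs. B cell-like cells stood at 322 and 239 CPM. Il1b was counted 4671 and 2956 times in dendritic cell-like cells (2661 and 1567 CPM) and 2745 and 2235 times in macrophage or monocyte-like cells (1024 and 1324 CPM). Il23a, the subunit particular to interleukin 23, was scarce in myeloid classes, with 2 and 0 UMIs in dendritic cell-like and 3 and 0 in macrophage or monocyte-like cells, while epithelium-like cells held 175 and 8 UMIs (9.26 and 5.94 CPM). Within T or NK cell-like cells 0 of 5 expressed ligand genes passed 2-fold, beside 1.02% of all genes higher and 2.35% lower. Their log2 ratios ran from Tgfb1 at 0.36 and Pdcd1lg2 at 0.17 to Cxcl16 at -0.35 and Il6 at -0.94.

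The receptor of interleukin 17A was read in the same way. Il17ra was found widely, at 129 and 127 CPM in fibroblast-like cells, 99.0 and 103 CPM in T or NK cell-like cells, 59.3 and 70.5 CPM in macrophage or monocyte-like cells and 40.3 and 48.6 CPM in smooth muscle-like cells. Il17rc was highest in epithelium-like cells, at 14.0 and 25.2 CPM, and stood at 2.31 and 7.65 CPM in fibroblast-like cells. Of 7 expressed receptor and target genes of the pathway in T or NK cell-like cells, 2 were at least 2-fold higher and 2 lower. Of all genes, 1.02% were that much higher and 2.35% that much lower. The chemokine genes Cxcl5 (2 and 110 UMIs) and Cxcl1 (20 and 114) were higher, and the iron-binding protein gene Lcn2 (37 and 1) and Cxcl2 (161 and 84) were lower. Lcn2 is an epithelial gene and epithelium-like cells were 37.6% and 3.04% of the cells; the part of free RNA in these counts was not tested.

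**Figure D5:**
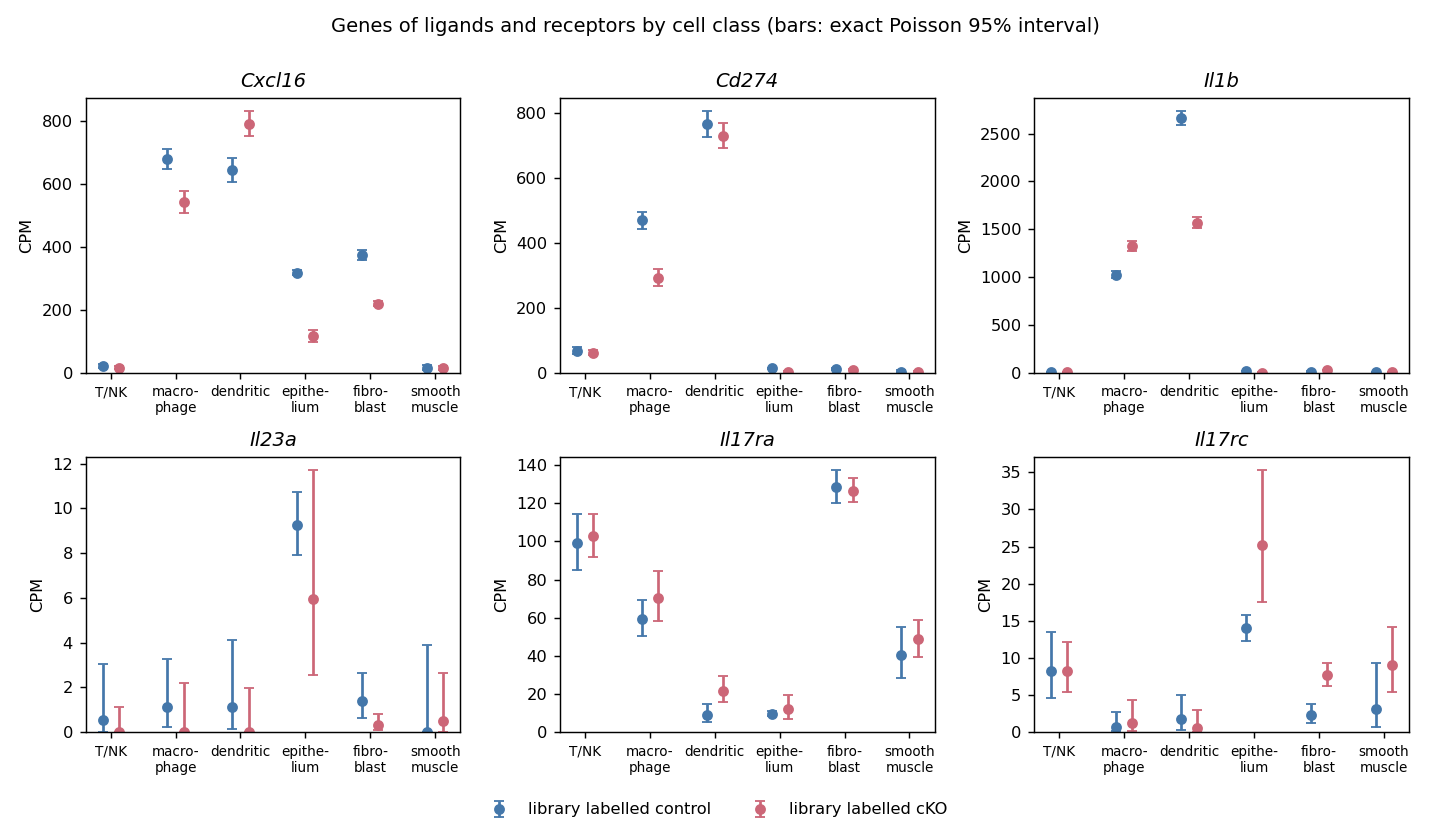
Level in CPM (vertical axis, each panel with its own scale) of 4 ligand genes and the 2 interleukin 17A receptor genes by cell class (horizontal axis), for the library labelled control (blue) and that labelled cKO (red); bars are exact Poisson 95% intervals. Among the classes drawn, Cxcl16, Cd274 and Il1b are high in the macrophage or monocyte-like and dendritic cell-like classes and Il23a in the epithelium-like class. Il17ra is high in the fibroblast-like and T or NK cell-like classes. Mast cell-like cells, where Cd274 was also high, are not drawn.

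The genes whose levels ran most like the mean of the 9 were sought over 47 sums of cluster and library, among 6644 genes. The 10 closest were Acsbg1 (Pearson r 0.93), Cd3g (0.89), Cd96 (0.88), Cd3e (0.88), Scrt1 (0.87), Olfr1259 (0.87), Cd226 (0.87), Actn2 (0.87), Prrt1 (0.87) and Zbtb16 (0.86). Acsbg1, an acyl-CoA synthetase gene, stood at 209 and 213 CPM in gamma delta T cell-like cells and at 25.5 and 35.8 CPM in the other T or NK cell-like cells. Zbtb16, which encodes the innate lymphocyte factor PLZF, stood at 209 and 149 CPM against 12.1 and 17.7 CPM. Between pairs of the 9 genes r ran from 0.60 to 0.97 with a median of 0.79 over 36 pairs. These sums share libraries and depth, and the values are descriptions across clusters without a p.

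Prickle1 was also read in the cells of this programme. Gamma delta T cell-like cells held 6 Prickle1 UMIs (17.9 CPM, interval 6.58 to 39.0) in the library labelled control and 36 (34.4 CPM, interval 24.1 to 47.6) in that labelled cKO, in 6.33% and 11.2% of cells, and in 2.53% and 2.17% after thinning to 1000 UMIs. The ratio of 1.92 had an interval of 0.80 to 5.56, so a difference was not detectable at this depth. Alpha beta T cell-like and ILC2-like cells held none, and NK cell-like cells 1 and 3.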

How the data were processed

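Single-cell libraries of 2 groups, 1 per group, were analysed. The authors deposited unfiltered counts of UMIs per gene and barcode, not normalized, written by Cell Ranger 4, per the file headers; the submitters' processing notes name Cell Ranger 6.1.1 and the mm10 build. Counting options such as strand are not given in the sources used here.

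Cells were barcodes with at least 1000 UMIs, 500 genes and at most 20% mitochondrial UMIs. With scanpy 1.11.5 (Python 3.11.15), 1992 variable genes without the 9 members, 30 principal components and 15 neighbours were used for clustering by the Leiden method (igraph 0.11.9, resolution 1), and T or NK cell-like cells were clustered again at 0.5, a resolution chosen after the data were seen. A name needed at least 3 markers, each found in at least 25% of its cells and 2 times as high as in the median cluster. Sub-clusters also needed 1 of their own markers among the 10 leading genes, a rule set after the data were seen. Scrublet's automatic threshold marked 4 of 7076 cells (0.0565%), so it had not worked and doublets remain.

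UMIs were summed per class and library and scaled to 1e6 (CPM), and fold counts used the log2 ratio after adding 5 CPM, over genes of at least 10 CPM in 1 library. Levels carry exact Poisson, shares exact Clopper-Pearson and ratios exact conditional 95% intervals (scipy 1.17.1). A count of 0 allows up to 3 UMIs. Thinning drew 1000 UMIs from each cell. Scripts were checked on simulated data. The members and lists were chosen with earlier results of these data known. The text names the 9 members, Prickle1, a set of programme genes, the 2 highest and 2 lowest of each list, and the 10 genes most like the members. Sequences come from RefSeq promoters (GRCm38.p6), matched by symbol, and gene positions from GENCODE vM21 (GRCm38).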

Additional observations from a re-analysis of the deposited data

How the results depend on the processing

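No paired analysis was possible because each group has 1 library. Each of the 9 log2 ratios (5 CPM scale) was recomputed under 13 alternatives in each of 2 sets of cells; those on sub-clustering, on sub-clusters left out and on gamma delta T cell-like cells were added after seeing the data. Over T or NK cell-like cells every direction held in all 13, with Acpp between 1.51 and 1.81. Median-of-ratios scaling, which lowers a log2 ratio there by 0.14 before 5 CPM is added and the median of all genes from 0.13 to 0.0019, gave 0.63 for Trdc and 0.66 for Cxcr6; thinning to 1000 UMIs gave 0.55 for Cxcr6, and a gate on Cd3 UMIs in place of clusters 0.41 for Trdv4. Median-of-ratios scaling also left 2 listed genes at least 2-fold higher and 8 lower (5 and 5 before), and 59 of all genes higher and 244 lower (89 and 205 before). The 2 left higher were on the receptor and target list, and no listed regulator or surface gene stayed 2-fold higher. The ratio of shares of cells with a UMI was 1.80 for Pdcd1 and 2.83 for Acpp after thinning.

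In gamma delta T cell-like cells Acpp stayed between 1.12 and 1.31 and Il23r between -1.07 and -0.60. Sub-clustering at resolution 1, where only the sub-cluster that kept the gamma delta name was taken, gave -0.26 for Trdc, -0.57 for Trdv4 and -0.49 for Cd163l1. The sign of Cd163l1 was not stable. In the sub-cluster left unnamed at that resolution the Trdc ratio was 1.57 (1.36 to 1.81). Trdc was -0.0080 in T or NK cell-like cells with a Cd3 and a Trdc UMI. That gate selects cells on Trdc itself, so this value cannot show a reversal. Cells with a Cd3 and a Trdc UMI gave 0.022 for Tcrg-C1 and 0.064 for Pdcd1. Thinning gave 0.69 for Tcrg-C1, -0.024 for Trdv4 and 0.21 for Cxcr6. The cause of these shifts was not tested. Depth limits Il17a and Prickle1, at 5 and 6 UMIs in these cells of the library labelled control.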

Other observations

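At the finer resolution 2 sub-clusters had members among their 10 leading genes; they are not the same set of cells as the gamma delta T cell-like class, and are described by values only because clusters are built from the expression of the same cells. The sub-cluster led by Cd163l1 and Blk (26 and 118 cells) held Cd163l1 at 1199 and 855 CPM, Tcrg-C1 at 753 and 791 CPM and Il23r at 193 and 89.4 CPM. The sub-cluster led by Igf1r and Sdc1, which stayed unnamed (56 and 145 cells), held Cd163l1 at 410 and 513 CPM, Tcrg-C1 at 375 and 472 CPM and Il23r at 134 and 91.6 CPM. Cd163l1 was thus lower in the library labelled cKO in the first, at a ratio of 0.713 (0.585 to 0.872), and not distinguishable in the second, at 1.25 (0.987 to 1.60). Il23r lay below 1 in both, at 0.464 (0.270 to 0.818) and 0.686 (0.427 to 1.12).

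Beta chain constant genes were also counted in gamma delta T cell-like cells: Trbc1 had 123 and 461 UMIs and Trbc2 195 and 440, in 68.4% and 63.9% of cells. In cells of the T or NK cell-like classes with a Cd3 UMI and a Trac UMI, Acpp had 19 and 149 UMIs, at 59.9 and 286 CPM, a ratio of 4.78 (2.95 to 8.16). Such a gate takes in gamma delta T cell-like cells with a Trac UMI.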
